A study of Mus musculus with 8 samples.

Results

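To examine whether the factors that specify photoreceptors and the eye field differed in aged Mrp4-deficient retinas, 10 transcription factor genes were followed. Crx, Nrl, Nr2e3, Otx2, Rorb and Prdm1 formed the photoreceptor group, while Rax, Pax6, Six3 and Six6 formed the eye-field group. By the RefSeq accession carried on the array, 9 of the 10 genes matched a probe, with 14 probes of the 56605 on the array, and Rorb (RAR-related orphan receptor beta) matched none and has no value here. All 14 probes were well above background on all 8 arrays, so none was lost to the filter that left 37085 probes. Total RNA of whole retina from mice aged 46 to 55 weeks was labelled with Cy3 and hybridized to 8 one-color arrays, 4 for homozygous Mrp4 knockout mice, referred to as Mrp4-null, and 4 for wild-type (WT) mice. The methods give a C57BL/6J background for the knockout line and name tissue from 3 mice, without making clear whether each sample was a pool. Nothing in the labels states that the 4 samples of a genotype came from separate animals, and the p-values then measure the spread between these samples only.

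In the developing eye, the eye-field factors Rax, Pax6, Six3 and Six6 mark the anterior neural plate that forms the optic vesicles and keep retinal progenitors dividing. Otx2 then commits precursors to a photoreceptor or bipolar fate and switches on Crx, the homeodomain factor that drives most photoreceptor genes, and Prdm1 (Blimp1) holds Otx2-expressing precursors to the photoreceptor fate by repressing bipolar genes. Nrl, a basic leucine zipper protein, turns photoreceptor precursors into rods, and its target Nr2e3, an orphan nuclear receptor, silences cone genes in rods. In the adult retina Crx, Nrl and Nr2e3 remain in photoreceptors and Otx2 in photoreceptors, bipolar cells and pigment epithelium. Pax6 and Six3 persist in amacrine and ganglion cells, Six6 is found in inner retinal neurons, and Rax is found in Muller glia and photoreceptors.

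The arrays were first checked as a whole. Abcc4, the gene for MRP4, was at a normalized log2 signal of 10.64 to 10.84 under the Mrp4-null label and 6.54 to 7.13 in WT. The targeted gene was thus higher under the knockout label (log2 difference 3.92, standard error 0.14, adjusted p = 1.36e-05 from limma), and where its single probe lies relative to the deleted part is not given in the sources used here. Every direction below therefore follows the labels as deposited, Mrp4-null refers to the label, and arrays are numbered as in the sample titles. Each genotype filled 1 row of the slide, so the row and the genotype cannot be told apart. Y-linked genes were above background on 3 of the 4 WT arrays and on none labelled Mrp4-null. Sex and genotype thus largely cannot be told apart in any comparison below, and the part of sex was not tested. Signal strength differed between arrays, with a 75th percentile of 497 on Mrp4-null array 2, 514 on WT array 3 and 566 to 786 on the other 6. The markers of rods, cones, bipolar, amacrine and horizontal, and ganglion cells (4 of 4 each) and of Muller glia (3 of 3) were above background on all 8 arrays, as were 5 of 6 lens and 5 of 6 pigment epithelium markers. In such bulk samples, fewer cells of a type and less RNA per cell cannot be told apart.

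The promoters of 3 of the factors are shown for orientation, those of Crx, the central photoreceptor factor, of Prdm1, the gene with the largest difference between the genotypes, and of Six3, the gene with the largest spread within them. Each is the 250 bases before an annotated transcript start, 5′ to 3′ on the strand of the gene, from RefSeq on GRCm38.p6, and capitals mark TAATCC or its reverse complement GGATTA, the core letters that Otx2 and Crx recognize.
Crx, chr7:15879956-15880205, minus strand: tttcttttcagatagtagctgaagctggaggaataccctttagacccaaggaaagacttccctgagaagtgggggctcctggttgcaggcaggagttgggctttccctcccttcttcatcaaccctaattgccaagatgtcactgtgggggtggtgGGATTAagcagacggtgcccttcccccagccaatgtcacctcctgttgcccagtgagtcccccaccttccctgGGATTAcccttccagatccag
Prdm1, chr10:44458749-44458998, minus strand: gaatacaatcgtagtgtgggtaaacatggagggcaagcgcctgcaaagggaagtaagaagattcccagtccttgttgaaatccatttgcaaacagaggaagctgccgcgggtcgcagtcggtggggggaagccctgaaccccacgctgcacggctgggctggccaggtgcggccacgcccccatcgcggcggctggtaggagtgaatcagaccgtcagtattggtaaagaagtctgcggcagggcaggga
Six3, chr17:85620584-85620833, plus strand: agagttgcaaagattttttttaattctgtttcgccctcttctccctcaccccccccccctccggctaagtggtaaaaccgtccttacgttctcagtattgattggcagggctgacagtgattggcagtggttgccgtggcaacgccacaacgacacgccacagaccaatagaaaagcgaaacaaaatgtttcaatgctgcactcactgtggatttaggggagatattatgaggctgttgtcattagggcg
The Crx window held the letters at 2 places, both as GGATTA, and the windows of Prdm1 and Six3 held none. Across the 14 windows that the table gives for 9 of the 10 genes, Rorb included and Rax left out, 2 held the letters on either strand, 1 of Crx and 1 of the 4 for Otx2. Of all 32851 windows of this length in the table, 6.25% did. A match describes the letters and is not evidence of binding.

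Across the 14 probes, none was called changed between the genotypes, a call being a fold change of at least 1.5 with a Benjamini-Hochberg adjusted p under 0.05 from limma over all 37085 probes. The background was 202 called probes, or 0.545% of those tested, 95 higher and 107 lower under the Mrp4-null label. An unadjusted p under 0.05 was found for 1 of the 14, that of Prdm1, against 6.46% of all probes. The genotypes were separated, with no overlap between their arrays, for the same single probe, against 4.79% of all probes. Of the 14 log2 differences, 5 were above 0 and 9 below, with a median of -0.036, beside -0.0093 over all retained probes, but the signs of Crx and Six6 turned under a shift to a common 75th percentile and that of Nrl under cyclic loess. The 95% interval of the difference lay inside 1.5-fold in both directions for 12 of the 14, a property shared by 77.2% of all probes, and reached beyond it for Prdm1 and Six3. The local pooled error (LPE) test named in the methods, with the same thresholds, called 0 of the 14, with adjusted p of at least 0.865, and 0.647% of the 37075 probes it could test. Below, called refers to limma unless LPE is named.

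**Figure D1:**
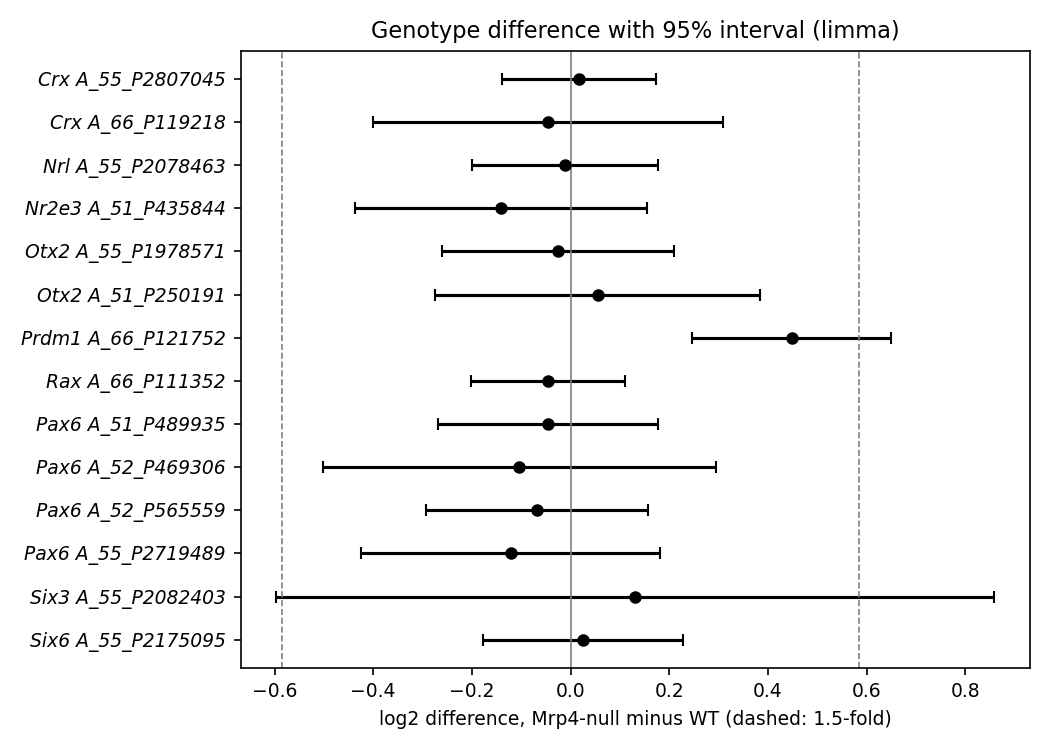
Log2 difference (x axis, arrays labelled Mrp4-null minus WT) for each of the 14 probes (y axis), as points with 95% intervals from limma, n = 4 arrays per genotype. The dashed lines mark 1.5-fold. All points but that of Prdm1 at 0.45 lie between -0.14 and 0.13, and the interval of Six3 is the widest.

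Among the factors that determine photoreceptor identity, Crx was measured by 2 probes. A_55_P2807045 read 15.79, 15.65, 15.74 and 15.71 under the Mrp4-null label and 15.70, 15.73, 15.70 and 15.69 in WT. The values lay within 0.13 of each other under the Mrp4-null label and 0.035 in WT, with every WT value inside the range of the others, and 99.2% of all retained probes varied more within the genotypes. The log2 difference was 0.02 (95% interval -0.14 to 0.17), or 1.01-fold (0.909 to 1.13). A_66_P119218 read 11.92, 12.27, 12.24 and 11.83 against 12.43, 11.87, 12.21 and 11.93, a difference of -0.05 (-0.40 to 0.31). Both genotypes held high and low arrays on that probe, and the probes of Crx did not rank the arrays alike.

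Nrl, the switch between rods and cones, had an intensity before normalization of 132001 to 177537 over the 8 arrays, with no spot saturated. Its normalized log2 signal was 17.31, 17.09, 17.18 and 17.31 under the Mrp4-null label and 17.25, 17.28, 17.14 and 17.26 in WT. The groups overlapped throughout, with a log2 difference of -0.01 (95% interval -0.20 to 0.18). Nr2e3 read 14.54, 14.69, 14.67 and 14.44 against 15.07, 14.65, 14.70 and 14.49, and only WT array 1 stood above the rest. Its log2 difference of -0.14 (-0.44 to 0.15) was the lowest of the 14 probes, but it was -0.03 without WT array 1. Nrl lies on chromosome 14, as do Otx2 and Abcc4 itself, and 24 of the 822 named retained probes on that chromosome (2.92%) were called changed, none of them of Nrl or Otx2.

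Otx2 was measured by 2 probes that carry different RefSeq transcripts. A_55_P1978571 read 14.71, 14.91, 15.01 and 14.78 under the Mrp4-null label and 15.08, 14.77, 14.85 and 14.80 in WT, a log2 difference of -0.03 (95% interval -0.26 to 0.21). For A_51_P250191 the values were 10.61, 11.06, 10.83 and 10.57 against 10.94, 10.44, 10.80 and 10.69, a difference of 0.05 (-0.27 to 0.38). The genotypes overlapped on both probes. Because Otx2 is also made by pigment epithelium, the 11 measured genes of that tissue were set beside it, and their mean log2 signal per array overlapped as well, at 7.72 to 8.15 under the Mrp4-null label and 7.61 to 8.16 in WT.

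Prdm1 was the exception in the group. Its probe A_66_P121752 read 9.95, 9.95, 9.68 and 10.01 under the Mrp4-null label and 9.45, 9.46, 9.47 and 9.43 in WT, so every array with the knockout label lay above every WT array. The means were 9.90 ± 0.15 (SD, n = 4) and 9.45 ± 0.02 (SD, n = 4), a log2 difference of 0.45 (standard error 0.09, 95% interval 0.25 to 0.65), or 1.36-fold. This is below the 1.5-fold limit, and the adjusted p of 0.0973 from limma missed the threshold. By the exact two-sided permutation test p was 0.0286, the smallest that 4 arrays against 4 allow. That p follows from the separation of the arrays, which 4.79% of all probes shared, and adds nothing to it. The LPE test gave an adjusted p of 0.865. The difference fell short of a call in all alternatives tried, although without Mrp4-null array 3, the lowest of the 4, it was 0.52 with an adjusted p of 0.0394, the lowest of the 19 alternatives, while the LPE value was the highest. Before normalization the intensities overlapped, at 745 to 1177 against 557 to 847, with the low value of 745 on the array of lowest overall signal, so the separation appears once arrays are brought to a common scale. Y-linked genes were above background on 3 of the 4 WT arrays and on none labelled Mrp4-null, and Prdm1 was at 9.45 on the WT array without them and at 9.43 to 9.47 on the 3 with them. That comparison rests on 1 array without Y-linked signal. The part of sex in the Prdm1 difference was not tested. On WT array 2 Xist was above background together with all 4 Y-linked genes.

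**Figure D2:**
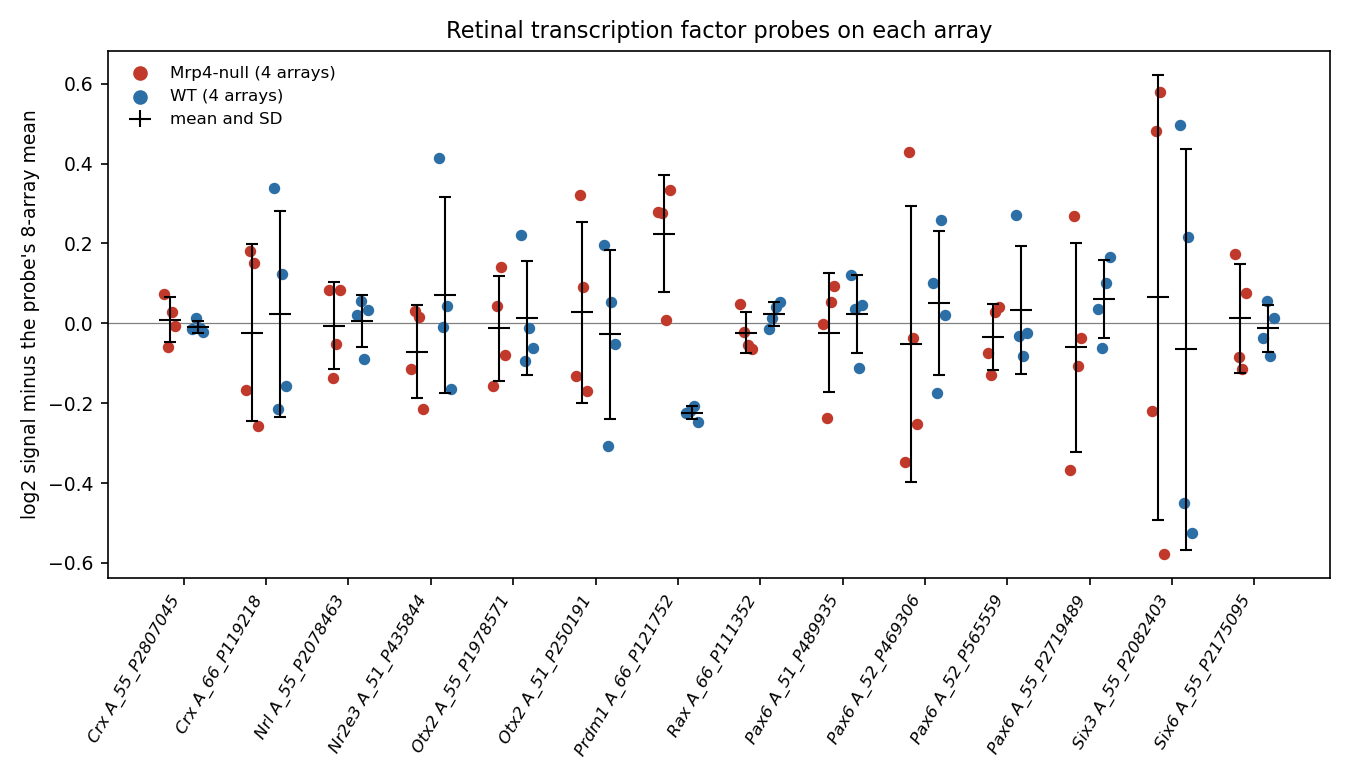
Normalized log2 signal of each probe (x axis, 14 probes) on each array, minus the mean of that probe over the 8 arrays (y axis). Red points are arrays labelled Mrp4-null and blue points WT arrays, with bars for mean and SD (n = 4). The red and blue points are apart for Prdm1 and mixed for the other 13 probes, and the points of Six3 are the most spread.

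In the eye-field group, Rax, which is needed for the optic vesicle to form, read 13.87, 13.80, 13.77 and 13.76 under the Mrp4-null label and 13.81, 13.84, 13.86 and 13.88 in WT. These 8 values lay close together, as for Crx probe A_55_P2807045, with 99.1% of retained probes varying more. The log2 difference was -0.05 (95% interval -0.20 to 0.11). Six6, a homeobox gene of progenitors and inner retinal neurons, read 11.74, 11.48, 11.45 and 11.64 against 11.53, 11.62, 11.49 and 11.58, and the WT values lay inside the range of the others. The difference for Six6 was 0.02 (-0.18 to 0.23).

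Pax6, the paired-box factor of progenitors and amacrine cells, was covered by 4 probes, of which A_55_P2719489 carries a different RefSeq transcript from the other 3. A_51_P489935 read 12.92, 12.68, 12.97 and 13.01 under the Mrp4-null label and 13.04, 12.96, 12.81 and 12.97 in WT. Its log2 difference was -0.05 (95% interval -0.27 to 0.18), and both genotypes had their lowest value on the array of weakest signal. The other 3 probes gave -0.07 (-0.29 to 0.16) for A_52_P565559, -0.10 (-0.50 to 0.29) for A_52_P469306 and -0.12 (-0.42 to 0.18) for A_55_P2719489. All 4 differences were below 0 and each interval held 0, and probes of 1 gene measured on the same arrays are not independent of each other. Amacrine and horizontal cells, where Pax6 persists, were followed through 15 genes, of which 14 were above background on all 8 arrays. Of these 14, 8 were higher and 6 lower, with a median log2 difference of 0.02 and none called. The other gene was Ptf1a, a factor of amacrine and horizontal precursors, which was above background on all 4 arrays under the Mrp4-null label and on 2 of the 4 WT arrays, and no difference is given for it. Calb1, the calcium buffer of horizontal cells, was at -0.18 (adjusted p = 0.884 from limma).

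Six3, which is needed for forebrain, eye and lens formation, varied most of all members. Its probe A_55_P2082403 read 10.60, 11.30, 11.40 and 10.24 under the Mrp4-null label and 11.31, 10.37, 11.03 and 10.29 in WT. In each genotype 2 arrays were high (11.03 to 11.40 over both) and 2 low (10.24 to 10.60), so the values were split within the genotypes and not between them. The SD was 0.56 and 0.50 (n = 4 each), and only 3.54% of all retained probes varied more within the genotypes. With this spread the log2 difference of 0.13 had an interval from -0.60 to 0.86, or 0.662-fold to 1.81-fold, which reached beyond 1.5-fold in both directions. Six3 is also a lens gene, and the mean log2 signal of 20 measured lens genes was 6.80, 6.55, 7.61 and 8.29 under the Mrp4-null label and 8.57, 9.41, 7.43 and 8.14 in WT. The lens mean was highest on WT array 2, where Six3 was at 10.37, and lowest on Mrp4-null array 2, where Six3 was at 11.30. The part of lens RNA in the values of Six3 was not tested.

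The arrays on which Six3 was high came back in other members. Mrp4-null arrays 2 and 3 and WT arrays 1 and 3 were the 4 highest for 5 of the 14 probes, those of Six3, Nr2e3, both of Otx2 and A_66_P119218 of Crx. For Nrl and Six6 the same 4 arrays were the lowest. On that Crx probe they read 12.21 to 12.43 and the others 11.83 to 11.93, whereas on Crx probe A_55_P2807045 the 8 arrays differed by 0.13 at most and ranked in another order. In 75th percentile of signal these 4 arrays were at 497, 725, 700 and 514, so the pair of lowest signal was among them, together with 2 arrays of ordinary signal. Some of these ranks rest on small gaps, with the 4th and 5th array 0.024 apart for Nr2e3 and 0.013 for Nrl, beside 0.44 for Six3. The 4 arrays were singled out after the values had been seen, and no test was made.

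**Figure D3:**
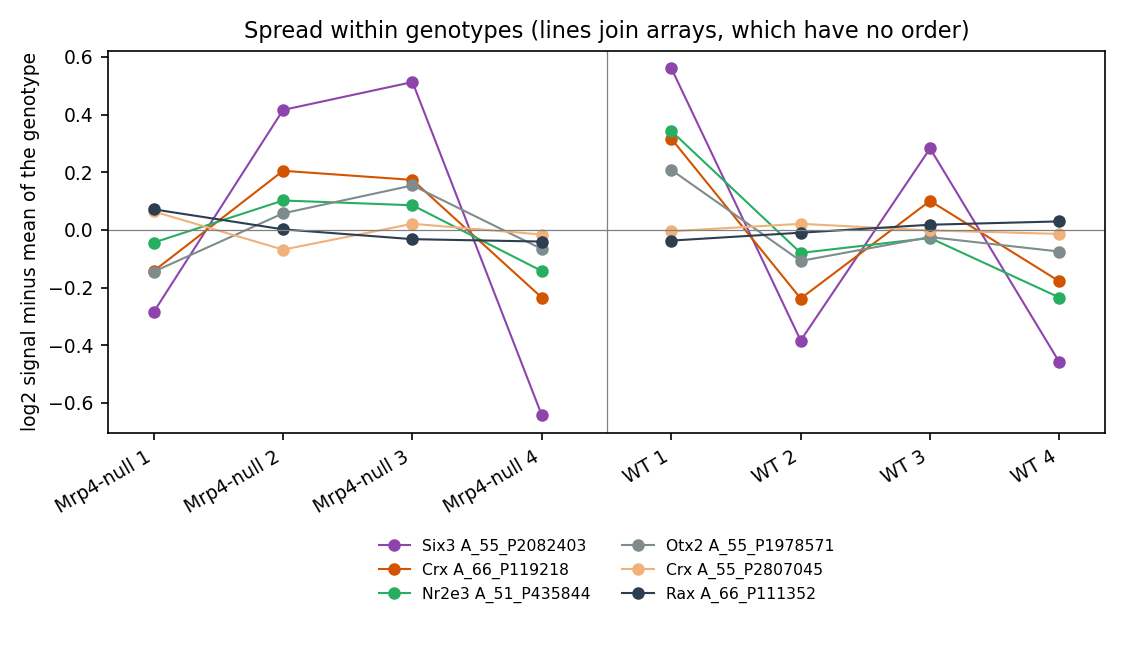
Normalized log2 signal of 6 probes on each array (x axis) minus the mean of the genotype (y axis). Lines join arrays of a genotype, which have no order. Six3, Crx A_66_P119218, Nr2e3 and Otx2 rise and fall on much the same arrays, most widely for Six3, while Crx A_55_P2807045 and Rax stay close to 0. On WT array 3, Nr2e3 and Otx2 lie slightly below 0, and Six3 and Crx A_66_P119218 above it.

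Antisense genes named after Six3, Otx2 and Pax6 were added after the values had been seen. Six3os1 was measured by 2 probes, of which A_55_P2145159 read 11.60, 11.50, 11.54 and 11.47 under the Mrp4-null label and 11.40, 11.45, 11.43 and 11.40 in WT. The genotypes did not overlap on that probe, but the log2 difference of 0.11 (95% interval -0.05 to 0.26) had a limma adjusted p of 0.990. The other Six3os1 probe gave 0.15 (-0.11 to 0.41) and overlapped. Otx2os1 was at 0.12 (-0.11 to 0.35), and Pax6os1 was at -0.0012 (-0.34 to 0.33). None of these transcripts was called.

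The genes that the photoreceptor factors drive were read next. Each gene was represented by 1 retained probe, and over all 16093 named genes the median log2 difference was -0.0099, with 0.572% called by limma and 0.727% by LPE, 6.60% at an unadjusted p under 0.05 and 5.44% without overlap between the genotypes. Among list genes above background on all 8 arrays, LPE called 11 lens genes and Rb1. Of 26 rod genes under Crx, Nrl and Nr2e3, all measured, 14 were higher and 12 lower under the Mrp4-null label, with a median of 0.02 and none called. The split was 8 higher and 18 lower under a shift to a common 75th percentile and 18 and 8 under cyclic loess, so no direction was given to the group. Their mean log2 signal was 15.69 to 15.81 and 15.71 to 15.80 on the arrays of the genotypes. The largest differences were those of Grk1, rhodopsin kinase, at -0.39 (standard error 0.10, adjusted p = 0.243 from limma), and Esrrb, a nuclear receptor of rods, at 0.36 (standard error 0.08, adjusted p = 0.155). Of 16 cone genes, 8 were higher and 8 lower, with a median of -0.0036 and none called. Grk1 was again the farthest from 0, followed by Arr3, cone arrestin, at 0.34 (adjusted p = 0.192 from limma). The genotypes were separated for 4 of the 26 rod genes (15.4%) and 3 of the 16 cone genes (18.8%). For the other cell types and tissues they were separated for 1 of 12 bipolar, 1 of 13 Muller glia, 1 of 14 ganglion cell and 1 of 20 lens genes, and for none of the amacrine and horizontal, pigment epithelium, and ciliary body and iris genes.

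Bipolar cells, which depend on Otx2, were represented by 12 genes, 8 higher and 4 lower, with a median of 0.07 and none called. Under a shift to a common 75th percentile the split was 6 and 6, with a median of 0.04. Nyx and Grm6, parts of the ON bipolar response, had the largest differences, 0.28 and 0.24 (adjusted p = 0.907 and 0.362 from limma). Nyx lies on chromosome X, as do the cone genes Arr3 and Opn1mw, the latter at 0.07. Of 13 Muller glia genes, 6 were higher and 7 lower, or 3 and 10 under a shift to a common 75th percentile, with a median of -0.03 that was 0.02 without both arrays of lowest signal. None was called, and the water channel Aqp4 was at -0.39 (adjusted p = 0.362) and the filament gene Vim at 0.13 (adjusted p = 1.00). Of 14 ganglion cell genes, 1 was higher and 13 lower, with a median of -0.12 and none called. Their mean log2 signal was 11.23 to 11.34 under the Mrp4-null label and 11.37 to 11.45 in WT, and the mean was thus lower on every array with the knockout label. The split of 1 and 13 was the same under both other scalings, and 2 and 12 without both arrays of lowest signal. Pou4f2, the ganglion cell homeobox gene, was at -0.35 (adjusted p = 0.558) and Sncg, gamma-synuclein, at -0.26 (adjusted p = 0.609).

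A wider list of 98 other retinal transcription factors had 93 with a retained probe and 90 above background on all 8 arrays. Of these 90, 47 were higher and 43 lower, with a median log2 difference of 0.01, and none was called. Over all 93 the median was -0.0076 under a shift to a common 75th percentile. Among the 90, an unadjusted p under 0.05 was found for 10 (11.1%), and the genotypes were separated for 8 (8.89%). Nfix and Irx6, named after their values were seen, were separated as Prdm1 was and had lower adjusted p. Nfix, a nuclear factor I gene, was at 11.57 ± 0.17 (SD, n = 4) against 11.06 ± 0.04, a log2 difference of 0.51 (limma adjusted p = 0.0884). Irx6, an Iroquois gene, was at 10.53 ± 0.02 (SD, n = 4) against 10.90 ± 0.08, a log2 difference of -0.37 (limma adjusted p = 0.0929). Irx5, an Iroquois gene of bipolar cells, was at -0.51 (standard error 0.16, adjusted p = 0.439 from limma). Nfix, Irx6 and Irx5 lie on chromosome 8, as do Grk1 and Pou4f2 above and Hsf4 and Wfdc1 below. Pcp2 and Calb2, also on chromosome 8, were at -0.06 and -0.09. Other genes named for their differences lie elsewhere, such as Esrrb on chromosome 12, Aqp4 on 18 and Sncg on 14. The part of the shared chromosome in these differences was not tested. Of the 5 measured lens factors none was called, with a median of -0.05 that was 0.01 under a shift to a common 75th percentile and 0.04 without both arrays of lowest signal, and Hsf4 and Prox1 had the largest differences, -0.14 and 0.07.

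In the neighbouring tissues, 20 lens genes were retained, of which 19 were above background on all 8 arrays. Of these 19, 18 were lower under the Mrp4-null label, with a median of -1.34, and the tests parted, with none called by limma and 11 by LPE. Among the 11, and named after their values were seen, were the crystallin genes Cryaa and Crybb2 and the fiber gene Bfsp1. Lim2, a membrane protein of lens fibers, was at -1.63 (standard error 0.81, adjusted p = 0.865 from limma and 2.02e-13 from LPE), with overlapping arrays and an SD of 1.54 and 1.18 (n = 4 each). Mip, the lens aquaporin, was above background on all 4 WT arrays and on 2 of the 4 under the Mrp4-null label, and no difference is given for it. Of 11 pigment epithelium genes, 9 were higher and 2 lower, with a median of 0.18, but without both arrays of lowest signal the split was 6 and 5 and the median 0.0098, and none was called. The melanosome genes Pmel and Tyrp1 were at -0.51 and 0.33 (adjusted p = 0.843 and 1.00). Of 6 ciliary body and iris genes, 5 were higher and none was called, and Wfdc1 and Zic2 were at 0.38 and 0.19 (adjusted p = 0.616 and 1.00). A further probe of Wfdc1, A_55_P2742306, was at 0.56 (limma adjusted p = 0.0976), with the genotypes separated.

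Among 12 partners and co-regulators of the rod factors, 1 was called, by both tests, or 8.33% of the list. Over all named genes the share was 0.572% by limma and 0.727% by LPE, and a share of 12 genes rests here on 1 gene. Rb1, the retinoblastoma gene, which is needed for rod precursors to mature, was at 11.54 ± 0.18 (SD, n = 4) under the Mrp4-null label and 10.36 ± 0.10 (SD, n = 4) in WT by its representing probe, a log2 difference of 1.18 (standard error 0.11, limma adjusted p = 0.00140). A further probe of Rb1 gave 9.35 ± 0.14 against 9.33 ± 0.15, a log2 difference of 0.03 (95% interval -0.21 to 0.26). Rb1 also lies on chromosome 14. The other 11 partners were between -0.16 and 0.22, the latter being the histone acetyltransferase gene Crebbp (adjusted p = 1.00).

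**Figure D4:**
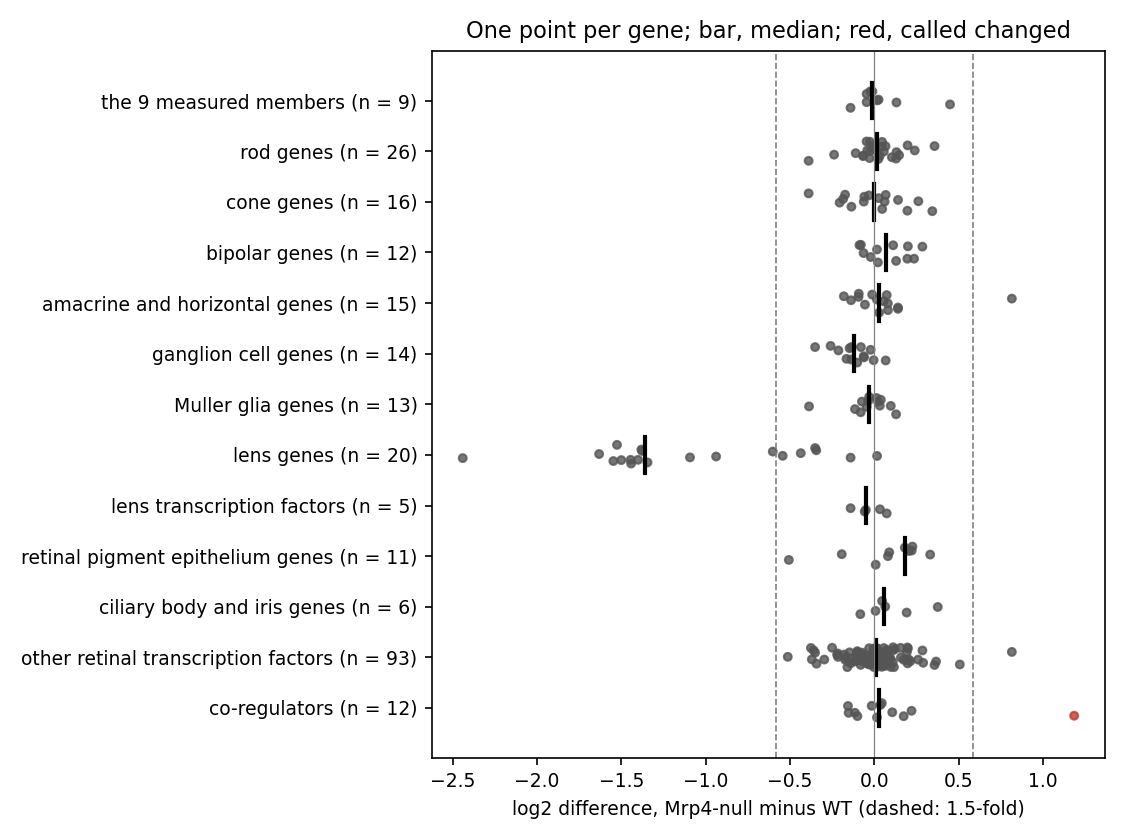
Log2 difference (x axis, arrays labelled Mrp4-null minus WT) of the representing probe of each gene, by list (y axis, with the number of genes measured). Bars are medians, dashed lines mark 1.5-fold, and red marks a gene called by limma. The 9 measured factors and the rod and cone genes centre near 0, Rb1 is the only red point, and 19 of the 20 lens genes, Mip included, are below 0, with a median of -1.36 over the 20. Mip and Ptf1a were at background on 2 arrays each.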

How the data were processed

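Retinal RNA of 8 samples was hybridized to 8 one-color Agilent arrays on 1 slide. The authors deposited the scanner output, processed with Agilent Feature Extraction 11.0.1.1, in which signal intensity is background-subtracted and detrended within each array but not normalized between arrays. The deposited table of the series holds the same intensities. Flags per spot were scored 0 or 1 by that software. Control spots and outlier spots (78 to 143 per array) were left out, log2 intensity was averaged per probe, and probes were retained when all measured arrays of either genotype lay well above background, with at least 3 measured arrays there and 2 in the other. Values were then normalized by the quantile method and compared with limma 3.58.1 in R 4.3.3, with genotype as the only term and Benjamini-Hochberg adjustment over all retained probes. Accessions matched the RefSeq gene table of GRCm38.p6 for 58.3% of the probes. The array design is annotated on another build (mm9), so the gene table served for names and chromosomes only, and the promoter coordinates belong to the RefSeq windows. The local pooled error test was written for this work, since the methods name it, with bins of 0.01 and a spline of 10 degrees of freedom. The files hold no mean signal per spot, so normexp (offset 50) used the median signal. The calls of limma and of the local pooled error test and the limma intervals were tested on simulated data, and the exact test on made-up values. The 4 arrays of a genotype limit the precision. Where a gene had several retained probes, the one with the highest mean signal represented it in the lists.

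The 10 genes and all lists were chosen with earlier results of these data known. Named in the text were all probes of the 10 genes and, from each list, the called genes and the 2 with the largest difference. The alternatives were other normalizations, backgrounds, filters and tests, the deposited table, the sample number as a replicate block, and arrays left out. The gene lists were also counted under 2 other scalings, without both arrays of lowest signal and over genes above background on all 8 arrays, as alternatives chosen after seeing the data.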

Additional observations from a re-analysis of the deposited data

Results flagged for a closer look

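For each of the 14 probes, the lowest and highest of the 4 values in each genotype were tested for a gap over the 95% critical value of Dixon's ratio, which chance passes in about 1 of 20 groups. Of these 28 groups, 1 passed. The Pax6 probe A_52_P565559 was at 10.64 on WT array 1 and at 10.29 to 10.35 on the other 3, so that the gap took up 0.835 of the range.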

How the results depend on the processing

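No probe of the transcription factors was called under any of the 19 alternatives. The count of all called probes was 202, and it was 71 with the replicate block, 128 without both arrays of lowest signal (Mrp4-null array 2 and WT array 3), and 117 to 188 when each array was left out in turn, with 131, 129 and 117 without WT arrays 2, 3 and 4. Correlations of same-numbered samples were -0.29, -0.69, 0.03 and 0.41, so the samples share only a number, and the paired fit changed no call of a transcription factor.

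Prdm1, Nr2e3 and Rax kept their sign in 19 of 19 alternatives, with Prdm1 between 0.39 and 0.52. The sign of Six3 turned in 3 of its 19 alternatives, each leaving out 1 array (Mrp4-null 2, Mrp4-null 3 or WT 4). The log2 difference became -0.034 for Crx and -0.0056 for Six6 with the 75th percentile shift, 0.028 for Nrl with cyclic loess, and 0.020 for Otx2 with the local pooled error test. Averaging all probes of a gene gave -0.014 for Crx and 0.015 for Otx2. Leaving out each array in turn gave -0.0039 to 0.040 for Crx, -0.22 to -0.027 for Nr2e3 (the latter without WT array 1), -0.044 to 0.030 for Nrl, -0.077 to 0.044 for Otx2, -0.092 to 0.026 for Pax6, -0.039 to 0.35 for Six3 and -0.028 to 0.067 for Six6. The cause was not tested. The normexp alternative used median spot signals, since the files hold no mean signal.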
